A study of Mus musculus with 6 samples.

Results

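The integrated stress response was followed through 10 genes in brown adipose tissue (BAT) of mice that lack Letmd1. Of these, 5 encode transcription factors (Atf4, Atf5, Ddit3, Atf3 and Cebpb) and 5 encode factors that feed back on translation or growth (Trib3, Chac1, Ppp1r15a, Ddit4 and Sesn2). They were picked by gene symbol, with earlier results of these data known, and each has 1 row among the 23282 rows of the count files. Total RNA of the interscapular BAT depot was sequenced from 3 wild-type and 3 Letmd1 KO mice, all male C57BL/6N animals at 5 weeks of age. The Letmd1 KO mice were homozygous for a knockout-first allele, in which a lacZ and neomycin cassette sits in an early intron, and the line came from 1 embryonic stem cell clone. The allele is carried by the whole body, so all cell types of the depot and all other organs of the mouse carry it. LETMD1 is a protein of the mitochondrial matrix that is abundant in BAT, and the comparison of the genotypes asks what its loss does to the tissue's transcripts.

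In the integrated stress response, kinases that sense different kinds of damage phosphorylate the translation initiation factor eIF2α. Translation of most mRNAs then falls, while mRNAs with upstream reading frames, Atf4 among them, are translated more, and ATF4 with its partner factors switches on genes of amino acid supply, redox balance and cell death. Some of the induced genes damp the response again, such as Ppp1r15a, whose product brings a phosphatase to eIF2α. In muscle and brown fat this response is known to follow faults of mitochondrial respiration or translation. Because ATF4, ATF5 and CHOP (the product of Ddit3) are also set at translation, mRNA counts read only a part of the pathway, and neither protein nor eIF2α phosphorylation was analysed here.

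The libraries were made with QuantSeq, which reads 1 place near the 3′ end of an mRNA. Counts therefore do not scale with the length of a gene and can be set beside each other without a length correction. The mice had between 6669577 and 14574273 counts each. For Letmd1 itself, 5658, 6490 and 5266 counts were found in wild-type against 0, 0 and 1 in KO mice, so the labels matched the counts. Levels are given as CPM, counts scaled with TMM to a common library size, in which a floor of 3 counts stood between 0.176 and 0.397 CPM and covers counting error only. Genes were compared with edgeR's quasi-likelihood test and called at a Benjamini-Hochberg adjusted p under 0.05. Of 12995 genes tested, 23.7% were higher and 22.3% lower in Letmd1 KO BAT, and for 57.3% the values of the genotypes did not overlap. Over all genes tested the log2 fold change had a median of 0.03, and the 5th and 95th percentiles were -1.37 and 2.34. The depot carried its markers, with a sum of the 8 brown adipocyte markers between 39450 and 45080 CPM in wild-type and between 12270 and 16010 CPM in Letmd1 KO BAT. Of these markers 6 were lower and 2 were not called, from Ucp1, the uncoupling protein of brown fat, with a log2 fold change of -4.05, to Pparg, the adipocyte master regulator, with -0.18.

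In Letmd1 KO BAT, 4 of the 5 transcription factors rose and 1 fell, and 3 of the 4 feedback genes that could be tested rose. The 7 genes that rose were Trib3, Atf3, Chac1, Ppp1r15a, Ddit3, Atf5 and Atf4, in order of log2 fold change from 5.65 down to 1.45. Cebpb fell by 1.13, Ddit4 had a log2 fold change of -0.80 that missed the threshold, and Sesn2 did not pass the filter on low counts, which the other 9 passed. The factors had a median log2 fold change of 1.83 and the feedback genes tested one of 3.29, against 0.03 for all genes. Chac1 passed the filter only with the KO mice, where it is high, and without it 2 of 3 feedback genes rose, with a median of 2.99. These counts compare with 23.7% higher and 22.3% lower among all genes tested. For all 9 genes tested, the values of the genotypes did not overlap, as for 57.3% of all genes tested. The summed level of the 10 genes was 1302, 1260 and 1077 CPM in wild-type and 2723, 2524 and 3186 CPM in Letmd1 KO BAT.

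The ATF4 response acts through short DNA elements, so the 250 bases before the start of each gene were searched on both strands in the RefSeq promoters of GRCm38.p6. All 10 genes matched by symbol, with 11 windows, since Atf5 has a pair of starts. The C/EBP-ATF response element, TGATGNAA, lay before Atf3 and Chac1, and the cAMP response element, TGACGTCA, before Ppp1r15a. The stretches around the sites follow, 5′ to 3′ on the strand of the gene, with the site in capitals, and are shown because these 3 of the 10 genes hold a searched element. Before Atf3 and Chac1 the element reads on the opposite strand, so the capitals show its reverse complement.
Atf3, chr1:191183410-191183469, minus strand: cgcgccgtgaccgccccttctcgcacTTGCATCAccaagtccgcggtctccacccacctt
Chac1, chr2:119351023-119351082, plus strand: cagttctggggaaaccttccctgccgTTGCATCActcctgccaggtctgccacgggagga
Ppp1r15a, chr7:45526269-45526306, minus strand: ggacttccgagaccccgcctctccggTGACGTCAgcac
The RefSeq start of Atf3 used here lies inside the span that GENCODE gives the gene, which begins further upstream. The site began 110 bases before this start of Atf3, 193 before that of Chac1 and 12 before that of Ppp1r15a. Of the promoters of all 27025 genes, 3.91% held the first element and 1.77% the second in windows of the same length. Among genes tested, the first element was found before 3.51% of those higher, 2.31% of those lower and 2.10% of those not called in Letmd1 KO BAT. The shares for the second were 2.55%, 3.26% and 3.21% in the same order. Neither TTGCGCAA, a C/EBP palindrome, nor TGACGTGG, an element of the unfolded protein response, lay in the windows of the 10 genes. A match of letters is not evidence of binding, and sites outside these windows were not searched.

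Atf4, the central factor of the response, lies on chromosome 15 from 80255184 to 80257541 (plus strand, GRCm38). Its level was 323, 228 and 164 CPM in wild-type and 648, 561 and 746 CPM in Letmd1 KO mice. Wild-type mouse 1 was the highest of its genotype, and every KO mouse stood above it. The mean rose from 238 ± 80.2 to 652 ± 92.6 CPM (SD, n = 3 each), with a log2 fold change of 1.45 (SE 0.227, 95% interval 0.94 to 1.96, edgeR adjusted p = 0.000803). Among wild-type mice Atf4 was more spread than other genes of like level, with an SD of 0.489 on the log2 scale against a median of 0.114 for 560 genes.

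Atf5, a relative of ATF4 that has been tied to mitochondrial protein stress, lies on chromosome 7 from 44812256 to 44816658 (minus strand). It had 177, 184 and 220.5 CPM in wild-type and 641, 622 and 802 CPM in Letmd1 KO mice. The wild-type mice lay close together, and the lowest KO mouse was well above the highest of them. The log2 fold change was 1.83 (SE 0.145, 95% interval 1.51 to 2.16, edgeR adjusted p = 1.96e-05), from 194 ± 23.5 to 688 ± 98.7 CPM. The 5′ end of Atf5 shares 82 exon bases with Nup62 and Il4i1 on the other strand, none of them in the last 500 bases of the gene's span. An annotated Atf5 transcript did hold 80 bases identical to both, on the other strand, within its own last 500 bases. Nup62, a nuclear pore protein, was not called (log2 fold change -0.11, edgeR adjusted p = 0.512), and Il4i1, an amino acid oxidase of immune cells, had no counts.

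Ddit3 encodes CHOP, the factor that turns a lasting stress response towards cell death, and lies on chromosome 10 from 127290774 to 127296288 (plus strand). It had 88.0, 81.6 and 71.3 CPM in wild-type and 524, 482 and 675 CPM in Letmd1 KO mice. KO mouse 3 was the highest, and the lowest KO mouse was well above the highest wild-type mouse. The SD on the log2 scale was 0.153 in wild-type and 0.254 in KO mice, against medians of 0.134 and 0.163 for genes of like level. The mean rose from 80.3 ± 8.40 to 560 ± 102 CPM, a log2 fold change of 2.80 (SE 0.158, 95% interval 2.45 to 3.16, edgeR adjusted p = 4.24e-06). Ddit3 thereby moved from percentile 81.7 to percentile 98.6 of the levels of all genes tested.

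The last 500 bases of Ddit3 share 68 exon bases with Mars, the methionyl-tRNA synthetase gene on the opposite strand. Mars rose as well, from 110 to 349 CPM, with a log2 fold change of 1.67 (SE 0.127, edgeR adjusted p = 1.66e-05). Whether strand was used in counting is not given in the sources used here, so reads from the shared bases cannot be assigned to 1 of the genes. Ddit3 had 73.3 ± 7.73 counts per 100 Mars counts in wild-type and 160 ± 6.28 in Letmd1 KO mice, so the ratio of the genes was higher in every KO mouse.

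Atf3, an inducible factor that both represses and activates stress genes, lies on chromosome 1 from 191170296 to 191218039 (minus strand). It was barely transcribed in wild-type BAT, at 1.83, 1.17 and 2.22 CPM, and reached 55.7, 53.2 and 49.6 CPM in Letmd1 KO mice. The wild-type values rest on 17, 11 and 17 counts and the KO values on 507, 402 and 843. The KO mice were nearly level with each other, and all stood far above the wild-type mice. The mean rose from 1.74 ± 0.53 to 52.8 ± 3.09 CPM, 30.4 times the wild-type mean (log2 fold change 4.93, SE 0.21, 95% interval 4.46 to 5.41, edgeR adjusted p = 1.27e-06). In the KO mice its SD of 0.0845 on the log2 scale was below the median of 0.136 for 2036 genes of like level.

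Cebpb went the other way. It encodes C/EBPβ, a partner of ATF4 and also a factor of early adipocyte differentiation, and lies on chromosome 2 from 167688915 to 167690418 (plus strand). It had 515, 612 and 446 CPM in wild-type and 204, 259 and 255 CPM in Letmd1 KO mice, so that each KO mouse was below each wild-type mouse. The mean was 525 ± 83.1 CPM in wild-type and 239 ± 30.7 CPM in Letmd1 KO BAT, and the log2 fold change was -1.13 (SE 0.15, 95% interval -1.47 to -0.80, edgeR adjusted p = 0.000300). In wild-type BAT Cebpb had the highest level of the 10 genes in every mouse, and in Letmd1 KO BAT it stood below Atf4, Atf5, Ddit3 and Trib3 in every mouse. Tmem189, which shares 312 exon bases with Cebpb on the other strand but none in its last 500, was not called (log2 fold change 0.41, edgeR adjusted p = 0.08).

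**Figure D1:**
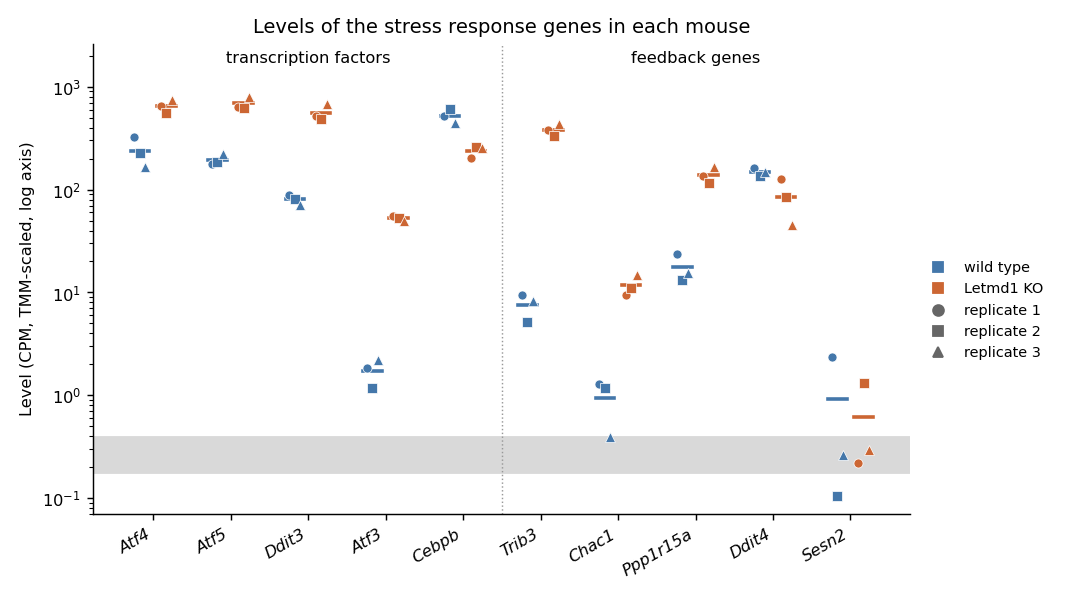
Level of each of the 10 genes in each mouse in CPM (TMM-scaled, log axis), with the factors left and the feedback genes right of the dotted line; short bars are means of 3 mice and the grey band is the floor of 3 counts (0.176 to 0.397 CPM). Trib3 and Atf3 show the widest gaps between wild-type (blue) and Letmd1 KO (orange) mice, Cebpb and Ddit4 lie lower in Letmd1 KO mice, and the values of Sesn2 overlap near the floor.

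Trib3, a pseudokinase that binds ATF4 and CHOP and restrains them, had the highest log2 fold change of the 9 genes tested. It lies on chromosome 2 from 152337422 to 152344032 (minus strand) and had 9.49, 5.20 and 8.21 CPM in wild-type against 379, 333 and 435 CPM in Letmd1 KO mice. The counts behind these were 88, 49 and 63 in wild-type and 3446, 2518 and 7398 in Letmd1 KO mice. No wild-type value came near the KO range. The mean rose from 7.63 ± 2.20 to 382 ± 51.0 CPM, 50.1 times the wild-type mean (log2 fold change 5.65, SE 0.223, 95% interval 5.15 to 6.15, edgeR adjusted p = 9.01e-07). Its log2 fold change lay at percentile 99.6 of the genes tested, and Trib3 moved from percentile 31.2 to percentile 97.5 of the levels.

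Chac1 encodes an enzyme that breaks down glutathione and is among the targets of ATF4 and CHOP. It lies on chromosome 2 from 119351229 to 119354381 (plus strand), and its level was low throughout, at 1.29, 1.17 and 0.391 CPM in wild-type and 9.45, 11.1 and 14.8 CPM in Letmd1 KO mice. Wild-type mouse 3 had 3 counts, which is the floor, whereas the KO mice had 86, 84 and 251. The mean rose from 0.95 ± 0.49 to 11.8 ± 2.72 CPM (log2 fold change 3.59, SE 0.383, 95% interval 2.73 to 4.45, edgeR adjusted p = 8.90e-05). The filter on low counts, at 1.02 CPM in 3 mice, was met by 2 wild-type and 3 KO mice, so Chac1 was tested because of its level in the KO mice.

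Ppp1r15a encodes GADD34, the inducible subunit that directs a phosphatase to eIF2α and so ends the block on translation. It lies on chromosome 7 from 45522916 to 45526268 (minus strand), and had 23.7, 13.4 and 15.4 CPM in wild-type and 135, 117 and 164 CPM in Letmd1 KO mice. The genotypes were far apart, with wild-type mouse 1 above the other wild-type mice. The mean rose from 17.5 ± 5.49 to 139 ± 23.7 CPM (log2 fold change 2.99, SE 0.222, 95% interval 2.49 to 3.49, edgeR adjusted p = 1.48e-05). Its last 500 bases share 12 exon bases with Tulp2, a tubby-like gene on the other strand that had 29, 15 and 16 counts in wild-type and 103, 132 and 281 in KO mice (log2 fold change 2.73, edgeR adjusted p = 0.000115). Tulp2 reached 15.1 CPM in Letmd1 KO BAT, against 139 CPM for Ppp1r15a.

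Ddit4 encodes REDD1, which restrains mTORC1 and responds to hypoxia and glucocorticoids as well as to ATF4. It lies on chromosome 10 from 59949669 to 59951834 (minus strand) and had 160.5, 134 and 148 CPM in wild-type and 127, 84.4 and 44.8 CPM in Letmd1 KO mice. KO mouse 1 was only just below wild-type mouse 2, and KO mouse 3, which had the highest level of 6 of the 9 genes tested, was far below. The means were 148 ± 13.3 and 85.4 ± 41.0 CPM, and the log2 fold change of -0.80 (SE 0.299, 95% interval -1.47 to -0.12) did not pass (edgeR adjusted p = 0.0541). The SD among KO mice was 0.754 on the log2 scale, against a median of 0.132 for 1499 genes of like level. DESeq2 called it lower (log2 fold change -0.81, adjusted p = 0.0124), and so did the same edgeR test without KO mouse 1 (log2 fold change -1.20, adjusted p = 0.00848). It was not called without KO mouse 3 (-0.48, adjusted p = 0.0691), with the muscle markers as a covariate (-0.46, adjusted p = 0.414) or with libraries scaled by size alone (-0.37, adjusted p = 0.303).

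Sesn2, a sestrin that reports amino acid shortage to mTORC1 and is induced by ATF4 in many cells, lies on chromosome 4 from 132492032 to 132510501 (minus strand). It had 22, 1 and 2 counts in wild-type and 2, 10 and 5 counts in Letmd1 KO mice, or 2.37, 0.106 and 0.261 against 0.220, 1.32 and 0.294 CPM. The groups overlapped, 2 wild-type mice and 1 KO mouse were at or under the floor, and the filter removed the gene. Without the filter its log2 fold change was -0.70 (edgeR adjusted p = 0.622), so a difference was not detectable at this depth.

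Ratios of counts within a mouse do not depend on the scaling between libraries, and they set the other genes against Atf4. Per 100 Atf4 counts, Trib3 had 2.93, 2.28 and 5.01 counts in wild-type and 58.5, 59.4 and 58.3 in Letmd1 KO mice. The KO mice were thus almost equal, with a coefficient of variation of 0.993%, below the counting error of between 1.46% and 2.52% of a single mouse. This was the lowest among the ratios to Atf4, with 3.01% for Ppp1r15a, 5.6% for Ddit3 and 51.0% for Ddit4. A spread below the counting error is no measure of how closely the genes are tied. For Ddit3 the ratio was 27.2, 35.8 and 43.5 in wild-type and 80.9, 85.9 and 90.5 in Letmd1 KO mice. For Ppp1r15a it was 7.33, 5.86 and 9.38 against 20.9, 20.9 and 22.0. For both genes the ratio of every KO mouse was above that of every wild-type mouse.

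For Atf5 the ratio to Atf4 overlapped, at 54.6, 80.7 and 134 per 100 in wild-type and 99.0, 111 and 107 in Letmd1 KO mice. Atf3 had 0.567, 0.512 and 1.35 against 8.60, 9.48 and 6.65, and Chac1 0.4, 0.512 and 0.238 against 1.46, 1.98 and 1.98. Cebpb fell from 159, 268 and 272 to 31.5, 46.2 and 34.1 per 100 Atf4 counts, and Ddit4 from 49.6, 58.8 and 90.4 to 19.6, 15.1 and 6.01. Relative to Atf4 the feedback genes thus split, with Trib3, Ppp1r15a and Chac1 higher and Ddit4 lower in every KO mouse. Within the C/EBP genes, Ddit3 had 15.5 ± 1.92 counts per 100 Cebpb counts in wild-type and 236 ± 43.5 in Letmd1 KO BAT.

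**Figure D2:**
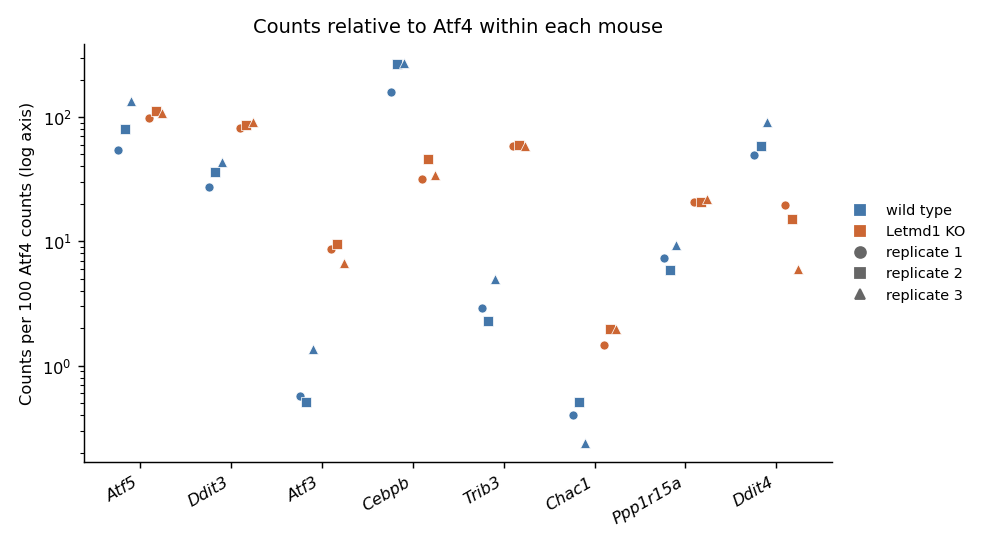
Counts of 8 genes per 100 Atf4 counts in the same mouse (log axis), for wild-type (blue) and Letmd1 KO (orange) mice, with a symbol for each replicate. The Trib3 ratios of the KO mice coincide between 58.3 and 59.4, the Atf5 ratios of the genotypes overlap, and the Cebpb and Ddit4 ratios are lower in every KO mouse.

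The mice of a genotype did not rank alike for all genes. Among Letmd1 KO mice, mouse 3 was highest for 6 of the 9 genes tested (Atf4, Atf5, Ddit3, Trib3, Chac1 and Ppp1r15a) and lowest for Atf3 and Ddit4. KO mouse 2 was lowest for 5, namely Atf4, Atf5, Ddit3, Trib3 and Ppp1r15a. Wild-type mouse 1 was highest for 6, whereas for Atf5 it was the lowest. Whether the labels' 3 mice of a genotype shared a litter is not given, so the p-values measure the spread between these mice.

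Markers of other cells moved with the genotype, where 23.7% of all genes tested were higher and 22.3% lower. All 13 macrophage markers were higher, and their sum was 257, 192 and 273 CPM in wild-type and 1789, 3682 and 1547 CPM in Letmd1 KO mice. The log2 fold changes ran from Cd14 at 1.10 to Gpnmb at 7.03. All 6 fibroblast markers were higher too (sum 2143 to 2843 against 5852 to 10160 CPM, from Dcn at 1.19 to Lum at 2.41). Of 8 endothelial markers 3 were lower (583 to 699 against 418 to 514 CPM, from Kdr at -0.99 to Cldn5 at 0.71), whereas with libraries scaled by size alone 1 was higher and 1 lower. None of the 4 erythroid genes was called (9714 to 18040 against 9831 to 13300 CPM), with Hba-a1, Hbb-bs, Hbb-bt and Alas2 at -0.21, -0.30, -0.29 and -0.51. No marker of these 4 cell types was at 0 counts in a mouse. In bulk tissue fewer cells of a type and less RNA per cell cannot be told apart, and the part of these cells in the results for the 10 genes was not tested.

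Skeletal muscle RNA was uneven among the libraries. The 13 muscle markers summed to 85.5, 521.5 and 97.8 CPM in wild-type and 479, 371 and 1363 CPM in Letmd1 KO mice. Of these markers 2, Myh1 (3.27) and Myh2 (3.15), were called higher, while Myl1 was lowest at -0.04. However, 10 of the 13, Myh1 and Myh2 among them, passed the filter only with the KO mice, and none of the other 3 was called. Of the 13, 7 had no counts in at least 1 wild-type mouse, and Ckm, the muscle creatine kinase, had 0 counts in wild-type mice 1 and 3, and 227 in wild-type mouse 2. Wild-type mouse 2, whose muscle sum exceeded that of KO mice 1 and 2, had 228 CPM of Atf4, 81.6 CPM of Ddit3 and 5.20 CPM of Trib3, which lie within the range of the other wild-type mice for Atf4 and Ddit3 and below it for Trib3. Among KO mice the muscle sum ranked mouse 3, mouse 1, mouse 2 from high to low, and Atf4, Atf5, Ddit3, Trib3 and Ppp1r15a ranked the mice in the same order. The total counts of the libraries gave this order too, and the macrophage and fibroblast sums gave its reverse. So few mice allow few orders, and the ranking does not single out muscle. With the mean of the muscle markers as a covariate, again 7 of the 10 genes were higher and 1 was lower. The part of muscle in the levels of single mice was not tested.

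Of 11 relatives of the 10 genes, 3 were higher, 3 were lower and 5 were not called, with a median log2 fold change of 0.16. These counts lie near the 23.7% higher and 22.3% lower of all genes tested. Trib1, a pseudokinase that marks C/EBPα for degradation, fell from 234 ± 93.3 to 42.7 ± 5.10 CPM (log2 fold change -2.45, SE 0.263, edgeR adjusted p = 9.13e-05), while Trib2 had a log2 fold change of -0.30 that was not called (edgeR adjusted p = 0.188). Per 100 Trib1 counts, Trib3 had 3.58 ± 1.73 counts in wild-type and 895 ± 43.1 in Letmd1 KO BAT. Ppp1r15b, the constitutive partner of the same phosphatase, fell from 191 ± 13.3 to 148.5 ± 3.67 CPM (log2 fold change -0.36, edgeR adjusted p = 0.0151), though with libraries scaled by size alone its log2 fold change was 0.06. Per 100 Ppp1r15b counts, Ppp1r15a had 9.08 ± 2.34 counts in wild-type and 93.3 ± 13.9 in Letmd1 KO BAT, so the inducible subunit came near the level of the constitutive one.

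Among the C/EBP genes, Cebpa, the factor of mature adipocytes, fell beside Cebpb, from 439 ± 74.9 to 164 ± 45.1 CPM (log2 fold change -1.43, edgeR adjusted p = 0.000423). The ratio of Cebpb to Cebpa overlapped between the genotypes, at 124 ± 39.6 and 151 ± 29.4 per 100. Cebpd, an early and inflammatory C/EBP gene, rose from 27.7 ± 1.97 to 64.9 ± 8.31 CPM (log2 fold change 1.23, edgeR adjusted p = 0.000108). Cebpg, the partner that pairs with ATF4 in amino acid stress, was not called, at 127 ± 7.63 and 141 ± 0.417 CPM (log2 fold change 0.16, edgeR adjusted p = 0.22). Jdp2, the nearest relative of ATF3, rose from 10.3 to 23.1 CPM (log2 fold change 1.15, edgeR adjusted p = 0.000762). Ddit4l, the second REDD gene, rose from 1.75 to 4.65 CPM (log2 fold change 1.40, edgeR adjusted p = 0.00756), whereas Ddit4 had -0.80.

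The sestrins Sesn1 and Sesn3 had log2 fold changes of 0.64 and 0.90 and were not called (edgeR adjusted p = 0.0724 and 0.1), and Chac2, the constitutive glutathione-degrading enzyme, had -0.32 (edgeR adjusted p = 0.389). With libraries scaled by size alone, 6 of the 11 relatives were higher and 2 lower, and Cebpg, Sesn1 and Sesn3 were among the higher. Of 5 other ATF genes, the endoplasmic reticulum sensors Atf6 and Atf6b rose (log2 fold changes 1.30 and 0.74, edgeR adjusted p = 0.000243 and 0.00108). Atf2, a factor of the stress kinases JNK and p38, fell by 0.62 (edgeR adjusted p = 0.00964), and its fall was not called with libraries scaled by size alone (log2 fold change -0.20, adjusted p = 0.335). Atf1 and Atf7 had 0.32 and -0.24 and were not called, although Atf1 was called higher with libraries scaled by size alone (log2 fold change 0.74, adjusted p = 0.00288).

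**Figure D3:**
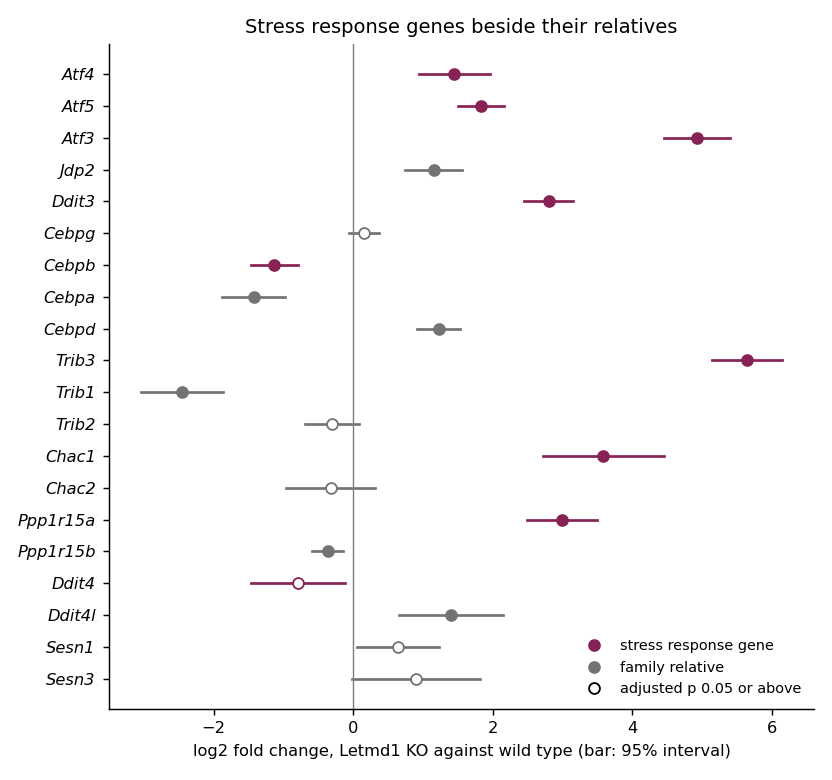
Log2 fold change (Letmd1 KO against wild-type BAT) with its 95% interval for the 9 stress response genes tested (purple) and 11 family relatives (grey), ordered by family; open points had an adjusted p of 0.05 or above in edgeR's test. Trib3 at 5.65 stands beside Trib1 at -2.45, and Ppp1r15a at 2.99 beside Ppp1r15b at -0.36 (0.06 with libraries scaled by size alone).

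The mRNAs of genes upstream of ATF4 had log2 fold changes between -0.74 and 0.48. None of the 4 eIF2α kinases was called, with log2 fold changes of -0.11 for Eif2ak1 (HRI), 0.43 for Eif2ak2 (PKR), 0.48 for Eif2ak3 (PERK) and 0.32 for Eif2ak4 (GCN2). Among 16 genes of the kinases, eIF2, its exchange factor eIF2B and the relays that reach the kinases, 2 were higher and 4 were lower, with a median of 0.15. These counts compare with 23.7% higher and 22.3% lower among all genes tested. The largest fall was that of Eif2b1, a subunit of eIF2B (log2 fold change -0.74, edgeR adjusted p = 0.00123), and the highest value was that of Eif2ak3, which was not called (edgeR adjusted p = 0.0689). With libraries scaled by size alone, 10 of the 16 were higher and none lower, with a median of 0.57, a shift shared by all genes, whose median moved from 0.03 to 0.45.

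The known targets of ATF4 outside the 10 genes mostly rose. Of 20 such genes of amino acid, one-carbon and secreted stress signals, 18 were tested, 14 were higher and 2 lower, and the median log2 fold change was 2.30. The shares among all genes tested were 23.7% higher and 22.3% lower. Of the 18, 6 (Aldh18a1, Slc7a11, Slc7a5, Slc6a9, Gdf15 and Stc2) passed the filter only with the KO mice, where they are high. Of the other 12, 8 were higher and 2 lower, and their median was 0.98. Phgdh and Psat1, which start serine synthesis and were singled out after their values were seen, rose from 3.90 ± 0.407 to 84.0 ± 15.8 and from 3.53 ± 0.457 to 63.7 ± 9.45 CPM. Psph, a further enzyme of serine synthesis, did not rise (log2 fold change -0.21, edgeR adjusted p = 0.235). Cth was not called either (0.82, edgeR adjusted p = 0.158), and Asns rose by 0.66. Gdf15, a secreted signal of mitochondrial stress, had 4, 1 and 2 counts in wild-type and 1895, 1970 and 3663 in Letmd1 KO mice (log2 fold change 9.68, edgeR adjusted p = 7.14e-08). The lowest value was that of Vldlr, a lipoprotein receptor, which fell by 1.18, and Eif4ebp1, the translation repressor that mTORC1 inactivates, fell by 1.14. For 5 of the 20 genes, all wild-type mice were at or under the floor, and of these Pycr1 and Fgf21 were not tested. Slc7a11, Slc7a5 and Stc2 had lower bounds of 7.29, 9.68 and 6.84 times wild type. With these at their bounds the median stayed at 2.30, but it could hardly move, since the bounds lay above it on the log2 scale.

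Of 6 genes tied to CHOP and cell death, 5 were higher and none was lower, with a median of 1.90. Of all genes tested, 23.7% were higher and 22.3% lower. Pmaip1, a BH3-only gene, passed the filter only with the KO mice, and without it 4 of 5 were higher, with a median of 0.92. They ran from Bbc3, a BH3-only death gene, at 0.66 to Gadd45a, a growth arrest gene, at 5.19. Ero1l, the oxidase of the endoplasmic reticulum that CHOP induces, was singled out after its values were seen and rose from 18.4 ± 6.28 to 432.5 ± 94.3 CPM (log2 fold change 4.54, edgeR adjusted p = 5.67e-06). Bcl2l11, another BH3-only gene, had 0.73 and was not called (edgeR adjusted p = 0.074). These genes and those of ATF4 were listed from textbook knowledge with earlier results of these data known. The lists share no gene, although a gene placed here may also be a target of p53.

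Protein stress in the endoplasmic reticulum and in mitochondria can both feed the response. Of 17 genes for chaperones and degradation in the endoplasmic reticulum, 11 were higher and none lower, with a median of 0.58, from Herpud1 at -0.15 (not called) to Sdf2l1 at 2.94. Hspa5, the chaperone BiP, likewise singled out afterwards, rose from 765 ± 98.3 to 1662 ± 255 CPM (log2 fold change 1.12, edgeR adjusted p = 0.000465), against 2.80 for Ddit3 and 5.65 for Trib3. Of 9 mitochondrial chaperones and proteases, 2 were higher and 6 lower, with a median of -0.49. The 2 that rose were the protease Lonp1 (1.49, from 167 ± 9.81 to 471 ± 61.4 CPM) and the chaperone Hspa9 (0.51), and the largest fall was that of the protease Afg3l2 (-0.88). With libraries scaled by size alone, 3 of the 9 were higher and 2 lower.

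Genes around the feedback arm were mixed, beside 23.7% higher and 22.3% lower among all genes tested. Of 13 genes of mTORC1 and its regulators, where Ddit4 and Sesn2 act, 1 was higher and 3 were lower (median -0.16), from Mtor, its kinase, at -1.66 to Tsc1, its inhibitor, at 0.56. With libraries scaled by size alone 3 were higher and 1 lower. Of 6 glutathione enzymes, beside Chac1, 2 were higher and 1 lower (median 0.26), from Gpx4, the lipid peroxidase, at -0.51 to Gss, glutathione synthetase, at 0.93, and with libraries scaled by size alone none was lower.

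Other pathways are known to induce some of the 10 genes. Counts for their targets stand beside 23.7% higher and 22.3% lower among all genes tested. The part of these pathways in the results for the 10 genes was not tested. Of 8 hypoxia targets, 3 were higher and 4 lower (median -0.50), from Egln3, an oxygen sensor, at -3.67 to Adm, adrenomedullin, at 1.79. Egln3 had 148, 134 and 81 counts in wild-type and 3, 20 and 10 in KO mice, so it passed the filter only with the wild-type mice. With libraries scaled by size alone, 3 of the 8 were higher and 2 lower. Of 6 glucocorticoid targets, none was higher and 1 was lower (median -0.29), from Zbtb16 at -0.97 to Tsc22d3 at 0.18, neither of them called. Wild-type mouse 3 stood apart, with 9.52 CPM of Fkbp5 and 12.8 CPM of Zbtb16 against 96.2 and 95.5, and 135 and 124, in the other wild-type mice, and without it 3 of the 6 were lower, with a median of -0.56. With libraries scaled by size alone, 2 of these were higher and none lower. Of 8 p53 targets, 3 were higher and 2 lower (median 0.23), from Phlda3, a repressor of AKT, at -1.56 to Eda2r, a death receptor, at 3.24, and with the muscle covariate none was called. Eda2r, like Fos among the immediate early genes, passed the filter only with the KO mice. Of 9 immediate early genes tested, 2 were higher and none lower (median -0.04), from Nr4a1 at -1.23 (not called) to Fos at 3.11.

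**Figure D4:**
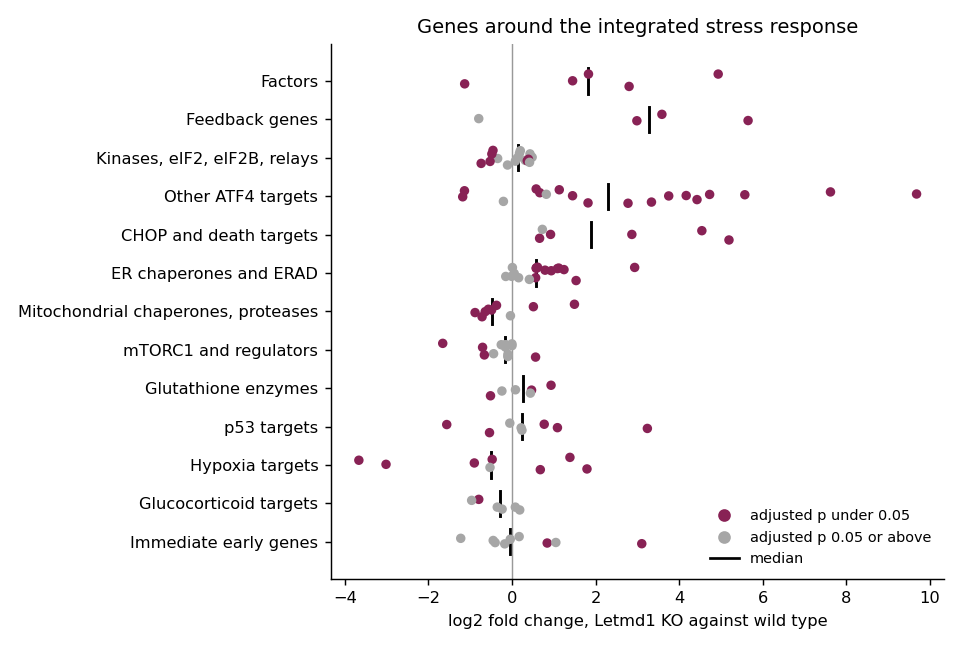
Log2 fold change (Letmd1 KO against wild-type BAT) of each tested gene in 13 groups around the integrated stress response, with purple points for an adjusted p under 0.05 in edgeR's test, grey points for the others and a black bar at the median of each group. The medians of the feedback genes (3.29), other ATF4 targets (2.30), CHOP and death targets (1.90) and factors (1.83) lie to the right of the median of all genes (0.03). Without genes that passed the filter only with the KO mice, they are 2.99 for feedback genes, 0.98 for other ATF4 targets (6 left out) and 0.92 for CHOP and death targets. The median of the kinases, eIF2 and eIF2B (0.15, or 0.57 with libraries scaled by size alone) lies near that of all genes.

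The mean profile of the 10 genes over the 6 mice, each gene centred on its own log2 CPM, differed by 2.09 between the genotypes. Of 10319 other genes with a mean of at least 50 counts, the nearest by root mean square distance over the 6 mice were Clec4n (0.0881), Flrt2 (0.0882), Gas7 (0.104), Samd4 (0.134) and Apba1 (0.145). Clec4n is a lectin receptor of myeloid cells, Flrt2 a membrane adhesion protein, Samd4 an RNA-binding repressor and Apba1 an adaptor of membrane traffic. All 5 were called higher, their log2 fold changes lying between 2.05 and 2.36. This follows from how they were picked, by nearness to a profile that differs by 2.09, and is not a separate result. Clec4n had 30, 18 and 14 counts in wild-type and 91, 72 and 162 in Letmd1 KO mice. The likeness was measured on the average of the 10 genes, in which rising and falling genes cancel in part, and single genes such as Trib3 (5.65) and Cebpb (-1.13) differ from it in size or direction.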

How the data were processed

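Per the labels, QuantSeq 3′ libraries were read as single ends of 75 bases, and the submitters' processing notes name Bowtie2, bedtools and build mm10. The authors counted unique and multiple alignments per gene and deposited read counts for each mouse without normalization. Versions, the annotation and the use of strand are not given in the sources used here. The quantile normalization named in the methods is not in the deposited counts.

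Here, the counts were fitted with edgeR 4.0.16 under R 4.3.3 (TMM scaling, default filter at a count of 10 and a total of 15, quasi-likelihood test with genotype as the only term), fitted on all genes with Benjamini-Hochberg adjustment. Every SE is the log2 fold change divided by the square root of its F statistic. Log2 CPM used a prior count of 2. Of the rows, 44 shared a symbol with another row. TMM factors were between 0.852 and 0.886 in wild-type and between 1.13 and 1.17 in Letmd1 KO mice. Between mice of a genotype, chi-square over its degrees of freedom ran from 12.1 to 36.3, more than counting noise gives. The edgeR fit was tested on simulated counts with far fewer changed genes than were called here, so the scaling was not tested by it. Gene positions came from GENCODE vM21 on GRCm38. A search of that annotation for near-copies of the last 500 bases, over at least 75 bases at 95% identity or more, matched 1 of the 10 genes, Atf5, to overlapping Nup62 and Il4i1. Protein sequences were not analysed here.

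The 10 genes, lists and tests were chosen with earlier results of these data known. Genes named beside the 10 are their relatives, the extremes of each list, all genes of lists with fewer than 6 tested genes, overlapping genes and the 5 nearest profiles. Those singled out after their values were seen are marked, and where a count of 5 or fewer is given its genes may be named. Alternatives set beforehand were scaling by library size alone or by DESeq2 size factors, quantile normalization with limma 3.58.1, DESeq2 1.42.0, no filter, a mean of at least 50 counts, the replicate number as a block, the muscle markers as a covariate, an added 2-fold threshold and leaving out each mouse. The result of 1 further marker list is not reported here.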

Additional observations from a re-analysis of the deposited data

How the results depend on the processing

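Of the 10 genes, 7 were higher in every alternative run. The 9 genes tested gave 126 single-gene alternatives, and 122 kept their direction and their side of the threshold. The other 4 all concern Ddit4, which was called lower with DESeq2 (-0.81, adjusted p = 0.0124), without the filter (-0.80, adjusted p = 0.0237), with the replicate number as a block (-0.90, adjusted p = 0.0177) and without KO mouse 1 (-1.20, adjusted p = 0.00848). The number of genes lower among the 10 was therefore 2 with DESeq2, 2 without the filter and 2 with the replicate block, and between 1 and 2 when a mouse was left out, against 1 as reported, and the cause was not tested. Over all its alternatives Ddit4 lay between -1.20 and -0.37, with adjusted p between 0.00848 and 0.414. By the numbers of the sample titles, same-numbered mice did not deviate together (r = 0.0691, -0.111 and -0.0865). With 3 mice in each genotype this check cannot exclude a weak pairing. The replicate block gave 2886 genes higher and 2713 lower. Library size alone moved the median of the 10 genes from 2.80 to 3.22 and that of the factors from 1.83 to 2.25, with the median of all genes moved from 0.03 to 0.45 and the share of calls that were higher from 51.6% to 81.2%. Quantile normalization moved the median of the factors to 2.28. The number of genes called fell from 5978 to 3541 with the muscle markers as a covariate and to 3048 with a 2-fold threshold, under which 62.3% of calls were higher. For Sesn2, with between 1 and 22 counts a mouse and overlapping genotypes, a difference was not detectable at this depth.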
